A study of Homo sapiens with 9 samples.

Results

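ISL1-positive hypoblast-like cells were 791 of the 19248 single cells that passed the filters on unique molecular identifiers (UMIs) and mitochondrial reads, with 709 in the D4 library and 82 in the D6 library. They were chosen by their own UMI counts: a total within a fixed window of depth, at most 10% of UMIs from mitochondrial genes, FN1 of at least 3 UMIs, SOX2 at 0, POU5F1 of at most 5, and at most 1 UMI each of CER1, NPPB, FGFBP3, APOA4 with LCN15, and GYPE with GYPB and RIPPLY1. Cells that met all of these limits are called gated here, and a gated cell was a member when it held at least 1 UMI of ISL1. There were 2773 gated cells at D4, with 3439 to 26165 UMIs each, and 1348 at D6, with 3432 to 26797. Because these 12 genes made the choice, their levels in members are a description only. The comparison group was gated cells of the same library with ISL1 at 0, and each member was paired with the one nearest to it in total UMIs, so that depth was alike. Of the genes that set the limits, FN1 stood at 943 CPM in D4 members and 924 CPM in paired cells, and at 1158 and 998 CPM at D6. POU5F1, an epiblast factor, stood at 92.5 and 69.0 CPM at D4, with UMIs in 58.3% and 47.5% of cells, and at 92.1 and 39.3 CPM at D6, with UMIs in 59.8% and 30.5%. CER1 stood at 7.38 and 9.62 CPM at D4, FGFBP3 at 11.6 and 10.1, APOA4 at 1.52 and 4.57 and LCN15 at 14.8 and 11.4, and NPPB had 41 and 65 UMIs.

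ISL1 encodes a LIM-homeodomain transcription factor known from cardiac progenitors, motor neurons, pancreatic islet cells and the amnion. In the RefSeq annotation of GRCh38.p14 the gene lies at chr5:51383448-51394730. The hypoblast is the extra-embryonic endoderm that lines the cavity beneath the epiblast, secretes basement membrane and apolipoproteins, and gives rise to the yolk sac endoderm. Its anterior part secretes antagonists of NODAL and WNT, such as CER1 and LEFTY1, and BMP from extra-embryonic tissue is among the signals that pattern the epiblast.

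The human extra-embryoid (hEE) is an aggregate of wild-type cells of the human pluripotent line ESI017 that organizes into an inner epiblast-like and an outer hypoblast-like tissue. The cells were grown on mouse feeder cells in hEP medium, depleted of feeders and aggregated in SDM, at first with ROCK inhibitor. Before D4 the medium was changed to mIVC2, so both libraries came from aggregates in mIVC2. The cells were otherwise untreated. One single-cell RNA library was made at D4 and one at D6, each from pooled aggregates. The D4 library held 151712246 UMIs in 10943 cells, of which 9151 were kept, and the D6 library held 150320228 UMIs in 11483 cells, of which 10097 were kept. Aggregates with visible inner and outer layers had been picked, the outer layer took longer to dissociate, and all cells came from 1 line, which limits what a share of cells stands for. With 1 library a day there was no replicate and no test, and all intervals are 95% intervals for counting error, so the spread between cells and cultures, which is wider, is not in them. A level is the summed UMIs of a gene per 1000000 UMIs of a group (CPM). The 2 libraries shared 40 cell barcodes, and no barcode was a member in both.

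Cells lay close to the limits of the rule. At D4, 30 members had FN1 at 3, and 21 cells that met every other limit had FN1 at 2. POU5F1 stood at 5 in 14 members and at 6 in 10 cells just outside. APOA4 with LCN15 stood at 1 in 139 members and at 2 in 39 cells just outside, and FGFBP3 at 1 in 99 members and at 2 in 18 cells. At D6 the same numbers were 9 and 4 for FN1, 23 and 20 for APOA4 with LCN15, and 9 and 2 for FGFBP3.

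The hypoblast name was checked on markers that the rule did not use, and it held for nearly all members. UMIs of all 18 listed hypoblast markers were present on both days, and their summed level was 8857 CPM in members and 10361 CPM in paired cells at D4, and 14204 and 23864 CPM at D6. In epiblast-like cells (SOX2 of at least 1 UMI, POU5F1 above 5, FN1 below 3), the sum was 1271 CPM at D4 and 1429 CPM at D6. Of 6 defining endoderm genes (SOX17, GATA4, GATA6, FOXA2, APOA1 and APOA2), the median member at D4 had UMIs of 4, as did its paired cells, and the median epiblast-like cell of none. A total of 10 of the 709 D4 members had UMIs of at most 1 of the 6, which is 1.41% (exact binomial interval 0.678% to 2.58%).

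At D6, 3 of 82 members went against the name. They had UMIs of at most 1 of the 6 endoderm genes, 0 UMIs of SOX17 and GATA6, and carried 26 UMIs of HAND1, 28 of BMP4 and 21 of ACTC1, genes of early mesoderm, amnion and heart muscle. The other 79 members together had 2 UMIs of HAND1, 8 of BMP4 and 1 of ACTC1. Those 3 were among the 5 D6 members with 3 or more ISL1 UMIs and held 18 of the 107 ISL1 UMIs of all D6 members. At D4 none of the 39 members with 3 or more ISL1 UMIs had so few endoderm genes. D6 values below that rest on these cells are also given for cells with UMIs of at least 2 of the 6 genes in both groups, with pairs made anew, which is called the endoderm-gene setting.

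ISL1 was low and spread widely over the gated cells. At D4, 2064 gated cells had no ISL1 UMI, 546 had 1, 124 had 2 and 39 had 3 or more, with a highest count of 5. If every gated cell had carried 1 common ISL1 level at its own depth, 2003.2 cells would have had 0, 641.5 would have had 1, 112.3 would have had 2 and 16 would have had 3 or more. At D6 the counts were 1266, 71, 6 and 5, against 1245.5, 98.1, 4.2 and 0.1 under 1 common level. Cells with 0 and with several UMIs were thus more numerous than a common level gives, and most cells at 0 would have been at 0 under it as well. A count of 0 therefore did not mark a cell as lacking ISL1.

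**Figure D1:**
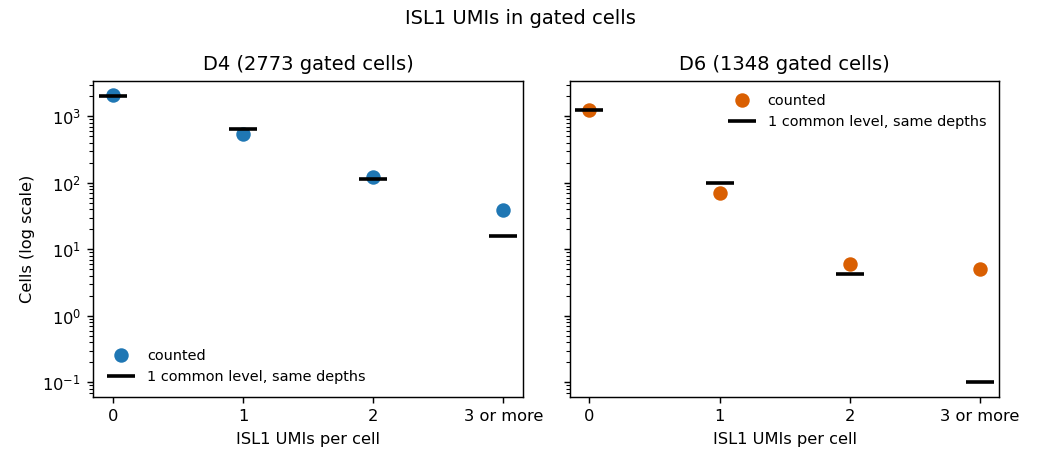
Number of gated cells (vertical axis, log scale) by ISL1 UMIs per cell (horizontal axis) at D4 (left) and D6 (right). Points are counted cells, and bars are the cells that 1 common ISL1 level at the same depths gives, which were 16 against 39 counted cells with 3 or more UMIs at D4.

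The share of gated cells with ISL1 was 25.6% at D4 (exact binomial interval 24.0% to 27.2%) and 6.08% at D6 (4.87% to 7.49%). In epiblast-like cells, which should lack the gene, it was 0.815% at D4 and 0.996% at D6, although their median depth was 15220 UMIs and 14246.5 UMIs against 10632 and 10584 in gated cells. After every cell was thinned to the lowest depth of the window, the gated share was 8.65% at D4 and 2.37% at D6, and the epiblast-like share 0.245% and 0.279%. By level, gated cells stood at 29.6 CPM at D4 (27.7 to 31.6) and at 7.10 CPM at D6 (5.82 to 8.57). Library and day cannot be told apart in this difference. At D4 the unthinned share followed depth, from 20.8% in the shallowest of 4 depth groups to 36.3% in the deepest, and the thinned share was 10.8% in the shallowest and 8.63% in the deepest. At D6 the unthinned share was 7.12% in the shallowest and 5.34% in the deepest group, and the level 10.4 CPM (6.76 to 15.2) and 4.83 CPM (3.15 to 7.07).

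Among all FN1-positive cells, those without SOX2 and with little POU5F1, ISL1 was not confined to the gate. At D4 it stood at 29.1 CPM (24.2 to 34.8) in 330 cells whose APOA4 and LCN15 UMIs summed to above the limit. Such cells are called APOA4/LCN15-positive here, and either gene alone could place a cell among them. In 92 cells with FGFBP3 above its limit, ISL1 stood at 29.8 CPM (20.9 to 41.3), and both intervals held the gated level. It stood at 17.6 CPM (13.8 to 22.2) in 339 CER1-positive cells and at 11.8 CPM (8.43 to 16.1) in 258 NPPB-positive cells. The log2 ratio to gated cells was -0.75 (-1.12 to -0.40) for CER1-positive and -1.33 (-1.82 to -0.87) for NPPB-positive cells. The 259 cells past several limits stood at 9.95 CPM (7.08 to 13.6). The order at D4 was therefore FGFBP3-positive, gated and APOA4/LCN15-positive cells, then CER1-positive cells, NPPB-positive cells and cells past several limits. The intervals of FGFBP3-positive and CER1-positive cells overlapped, as did those of CER1-positive and NPPB-positive cells, and those of NPPB-positive cells and cells past several limits.

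At D6 the 1612 APOA4/LCN15-positive cells stood at 6.47 CPM (5.36 to 7.75). The 181 NPPB-positive cells stood at 2.83 CPM (1.14 to 5.83), with a log2 ratio of -1.33 (-2.68 to -0.23) to gated cells. CER1-positive cells numbered 33 and held 4 ISL1 UMIs, and FGFBP3-positive cells numbered 14 and held 2, so their levels were not distinguishable from the gate at this depth. Cells with at least 2 UMIs of TFAP2A, an amnion and ectoderm factor, and FN1 below 3 had no ISL1 UMI in 83 cells at D4, which allows a share of cells with an ISL1 UMI of up to 3.61% by 3 counts of the total and 4.35% by the exact interval, and stood at 8.34 CPM (6.11 to 11.1) in 382 cells at D6. The log2 ratio of these TFAP2A-positive cells to gated cells was 0.23 (-0.30 to 0.75), so a difference at D6 was not detectable at this depth.

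**Figure D2:**
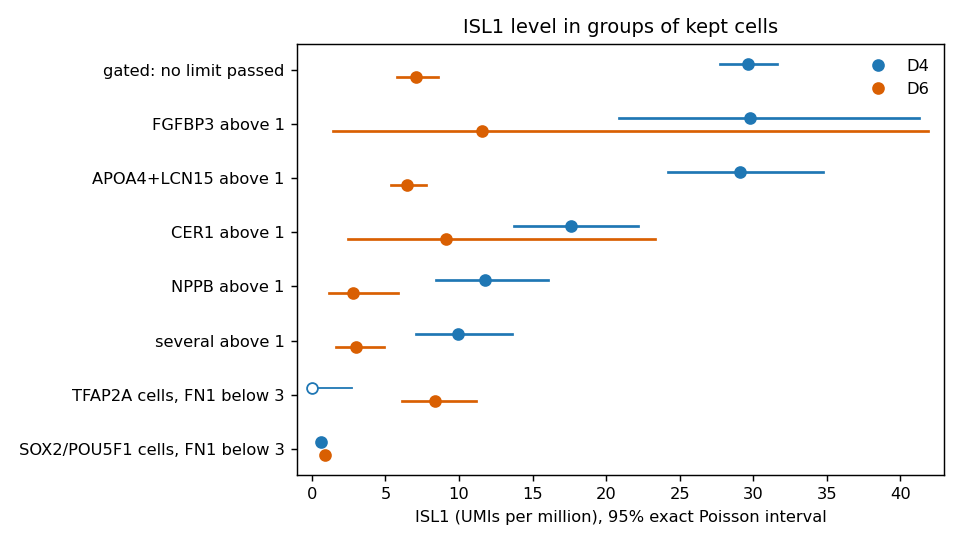
ISL1 level in CPM (horizontal axis) in groups of kept cells (vertical axis) at D4 (blue) and D6 (orange), with exact 95% Poisson intervals. At D4 gated, FGFBP3-positive and APOA4/LCN15-positive cells lay between 29.1 and 29.8, and CER1- and NPPB-positive cells lay lower. The open point marks 83 cells without an ISL1 UMI.

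Members and their paired cells were alike in quality. Median depth at D4 was 11406 UMIs in members and 11408 in paired cells, the median mitochondrial share was 3.65% and 3.71%, and the median number of genes after thinning was 1714 and 1705. G2M cells were 46.3% of D4 members (42.5% to 50%) and 42.5% of paired cells (38.8% to 46.2%), and G1 cells 23.3% (20.2% to 26.6%) and 28.2% (24.9% to 31.7%). At D6 S-phase cells were 31.7% of members (21.9% to 42.9%) and 20.7% of paired cells (12.6% to 31.1%). Scrublet called 1 D4 member and 1 D6 member a doublet.

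Past 1.5-fold, more genes were lower than higher in D4 members, while smaller differences ran both ways. Of 6349 genes at 20 CPM or more in either group, 3 were at least 1.5-fold higher in members (0.0473% of genes compared) and 24 at least 1.5-fold lower (0.378%), and the median log2 ratio over all of them was 0.01. Intervals lay above 0 for 544 genes (8.57%) and below 0 for 483 (7.61%), and 53.8% of the ratios were above 0. Among the 163 members with 2 or more ISL1 UMIs, paired anew, 164 of 6554 genes were past 1.5-fold higher and 171 lower. These included none of the 3 higher and 22 of the 24 lower genes. The 163 are among the members in which those genes were called, so this is a description only. The settings that follow also draw on those members. Without pairing, 1 of the 3 and 14 of the 24 were past that fold, and within strata of depth 1 and 18. With CER1, NPPB, FGFBP3 and the other limited genes at 0, 0 and 13 were, and with doublets out all 3 and all 24. The 24 lower genes included the secreted regulators FST, LEFTY1, RSPO3, STC1 and NRG1, the receptors LIFR, LGR5 and ERBB4, and the transcription factors FOXQ1, KLF5 and SP8. In the D6 library, where 82 members left wide counting error, 743 of 6902 genes were past 1.5-fold higher (10.8%) and 465 past 1.5-fold lower (6.74%), so a single gene past that fold at D6 carries little weight.

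FST, a secreted protein that binds activin and BMPs, was the most precisely measured of the lower regulators. It stood at 198 CPM in D4 members and 373 CPM in paired cells, a log2 ratio of -0.91 (-1.0 to -0.83), and 65.4% of members against 79.3% of paired cells held a UMI. At D6 it stood at 279 and 595 CPM, a log2 ratio of -1.09 (-1.32 to -0.87). RSPO3, which strengthens WNT signalling, stood at 33.6 and 78.6 CPM at D4 (-1.22, -1.43 to -1.02) and at 163 and 350 CPM at D6 (-1.10, -1.40 to -0.81). LGR5, a receptor for R-spondins and a WNT target, stood at 15.8 and 30.6 CPM at D4 and at 29.2 and 58.4 CPM at D6. A ligand of the R-spondin family and a receptor for that family were thus lower together on both days.

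FOXQ1, a forkhead transcription factor, had the largest difference after S100A6. It stood at 5.50 CPM in D4 members and 22.9 CPM in paired cells, a log2 ratio of -2.05 (-2.55 to -1.59), with UMIs in 4.09% and 10.7% of cells. At D6 it stood at 92.1 and 211 CPM, a log2 ratio of -1.20 (-1.59 to -0.82). LEFTY1, a secreted inhibitor of NODAL and a marker of anterior visceral endoderm, stood at 21.1 and 43.5 CPM at D4 (-1.05, -1.31 to -0.78) and at 91.0 and 217 CPM at D6 (-1.25, -1.65 to -0.87). With CER1 and the other limited genes at 0, its D6 ratio was -0.51. LIFR, a receptor of the leukaemia inhibitory factor family, stood at 25.9 and 51.1 CPM at D4 and at 32.6 and 75.3 CPM at D6. These levels sum over uneven cells: 11.1% of D4 members and 16.8% of paired cells had any LEFTY1.

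APOA1, the main protein of high-density lipoprotein, was the most abundant of the 12 genes lowest in members. Its level was 1143 CPM in D4 members and 1712 CPM in paired cells (log2 ratio -0.58, -0.62 to -0.55), and 4281 and 10397 CPM at D6 (-1.28, -1.34 to -1.23). The median cell held 735 CPM among D4 members and 1088 CPM among paired cells, and single cells ran from 0 to 11862 CPM in members and from 0 to 13289.9 CPM in paired cells, so the groups overlapped over nearly their whole range. GATA6-AS1, the antisense neighbour of GATA6, differed by -0.88 at D4 and by -0.85 at D6 (log2), and HMOX1, which degrades haem, at -0.72 and -0.73. STC1, a secreted glycoprotein, was at -0.68 at D4 and -1.40 at D6 (-0.82 without pairing), and KLF5 at -0.93 and at -0.60 (-1.26 to 0.04).

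S100A6, a calcium-binding protein, ranked first among lower genes but did so through few cells. It had 8 UMIs over all D4 members, which is 0.937 CPM, and 287 UMIs in paired cells, which is 33.7 CPM. The highest count was 1 UMI in a member and 98 UMIs in a paired cell, and 4 paired cells and 31 of all ISL1-negative gated cells had 10 or more. With only cells that had at least 2 of the 6 endoderm genes, the log2 ratio was -3.43 in place of -5.17, and no UMI was counted in either group at D6.

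The genes higher in members had smaller ratios. PRRG4, a membrane protein with a Gla domain, stood at 25.2 CPM in D4 members and 15.8 CPM in paired cells (log2 ratio 0.67, 0.35 to 0.99) and at 40.4 and 19.1 CPM at D6 (1.08, 0.21 to 2.01). DAB2, an endocytic adaptor of primitive and visceral endoderm, stood at 59.1 and 40.7 CPM at D4 (0.54, 0.34 to 0.74) and at 59.5 and 27.0 CPM at D6 (1.14, 0.42 to 1.90). ID4, a BMP-responsive inhibitor of helix-loop-helix factors, stood at 134 and 101 CPM at D4 (0.41, 0.28 to 0.54) and at 127 and 56.2 CPM at D6 (1.18, 0.68 to 1.69). These 3 genes lay on the same side of paired cells on both days.

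PRTG, a surface protein of the immunoglobulin superfamily, stood at 92.9 and 67.9 CPM at D4 (log2 ratio 0.45, 0.30 to 0.61) and at 157 and 70.8 CPM at D6 (1.15). One D6 member held 39 of its 140 UMIs there, and in the endoderm-gene setting the D6 ratio was 0.58. FOXC1, a forkhead factor of mesoderm, stood at 24.6 and 16.5 CPM at D4, and at D6 it had 10 UMIs in members and 1 in paired cells. Of those 10 UMIs, 3 lay in the 3 members with at most 1 of the 6 endoderm genes. Its D6 log2 ratio was 3.32 (0.51 to 8.76), and 1.89 without pairing and 0.74 with pairs within cell cycle phase. PGF, a growth factor of the VEGF family, differed by 0.61 at D4 and by 0.69 at D6 (log2, -0.37 to 1.81). The anchoring protein AKAP12 was at 0.51 and 0.60, with 15 of its 62 D6 UMIs in the 3 members with at most 1 of the 6 endoderm genes. In the endoderm-gene setting its D6 ratio was 0.23. The RNA-binding protein RBM12B was at 0.56 and 1.08 (0.21 to 2.01), the helicase PIF1 at 0.50 and 0.89 (-0.10 to 1.94), and the non-coding RNA PCAT14 at 0.39 and 0.67 (0.29 to 1.05). Their D6 ratios fell with other choices, RBM12B to 0.44 and PIF1 to 0.08 with the limited genes at 0, and PCAT14 to 0.06 with pairs within cell cycle phase. The non-coding RNA HCG18 and the pseudouridine synthase PUS1 were at 0.53 and 0.62 at D4 but at -0.14 (-0.90 to 0.62) and -0.26 (-1.63 to 1.07) at D6.

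**Figure D3:**
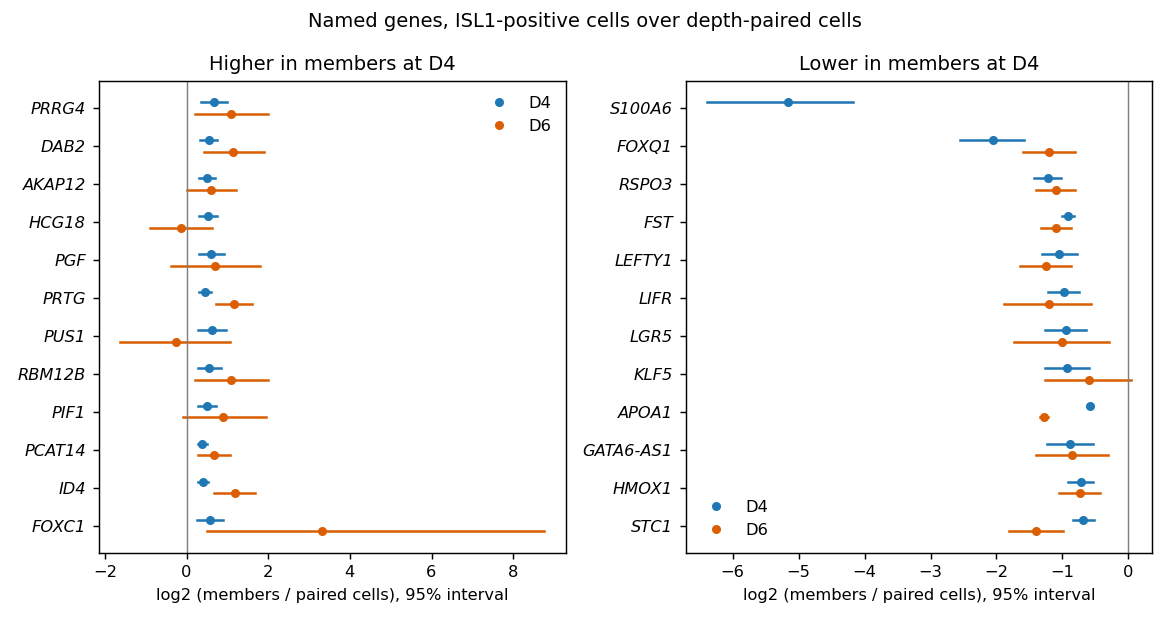
Log2 ratio of members over depth-paired ISL1-negative cells (horizontal axis, 95% interval) for the 12 genes highest (left) and the 12 lowest (right) in members at D4, at D4 (blue) and D6 (orange). S100A6 has no D6 point because no UMI was counted, and every other gene on the right lay below 0 on both days.

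The D6 library took no part in ranking genes at D4, so the genes called at D4 were read again there. Of the 24 lower genes, 23 had UMIs in both groups at D6, all 23 were lower in members and 20 were past 1.5-fold, with a median log2 ratio of -1.09. Among the 6348 genes compared at D4 that had a D6 value, 45.1% were lower at D6 and 5.10% past 1.5-fold lower. Of the 3 higher genes, PRRG4 and PGF were past 1.5-fold higher at D6 and PUS1 was not, where 54.9% of all compared genes were higher and 8.95% past 1.5-fold higher. With CER1, NPPB, FGFBP3 and the other limited genes all required to be at 0 UMIs, 22 of the 23 lower genes stayed lower at D6 and 16 were past 1.5-fold.

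The D4 members were also split by their ISL1 UMIs, which is a description, since ISL1 chose the members and the genes were ranked in the same cells. In the 163 members with 2 or more ISL1 UMIs, all 12 named lower genes lay further below their own paired cells than in the 546 members with 1, with medians of -1.35 and -0.86. APOA1 was at -1.11 (-1.19 to -1.03) with 2 or more and at -0.44 (-0.48 to -0.40) with 1, and FST at -1.46 (-1.67 to -1.26) and -0.78 (-0.88 to -0.69). HMOX1 was at -1.34 (-1.81 to -0.89) and -0.57 (-0.78 to -0.35). The intervals were apart for these 3 of the 12 lower genes and overlapped for the other 9, among them FOXQ1 at -3.84 (-6.18 to -2.20) and -1.79 (-2.31 to -1.30). S100A6 and LEFTY1 moved least, from -5.14 to -5.23 and from -1.03 to -1.11. Of the 12 higher genes, 7 lay further from 0 with 2 or more UMIs, with medians of 0.51 and 0.47. ID4, the one of these with intervals apart, was at 0.81 (0.55 to 1.07) with 2 or more and at 0.26 (0.11 to 0.42) with 1. Median depth was 11747 UMIs in members with 2 or more and 11198 in those with 1.

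**Figure D4:**
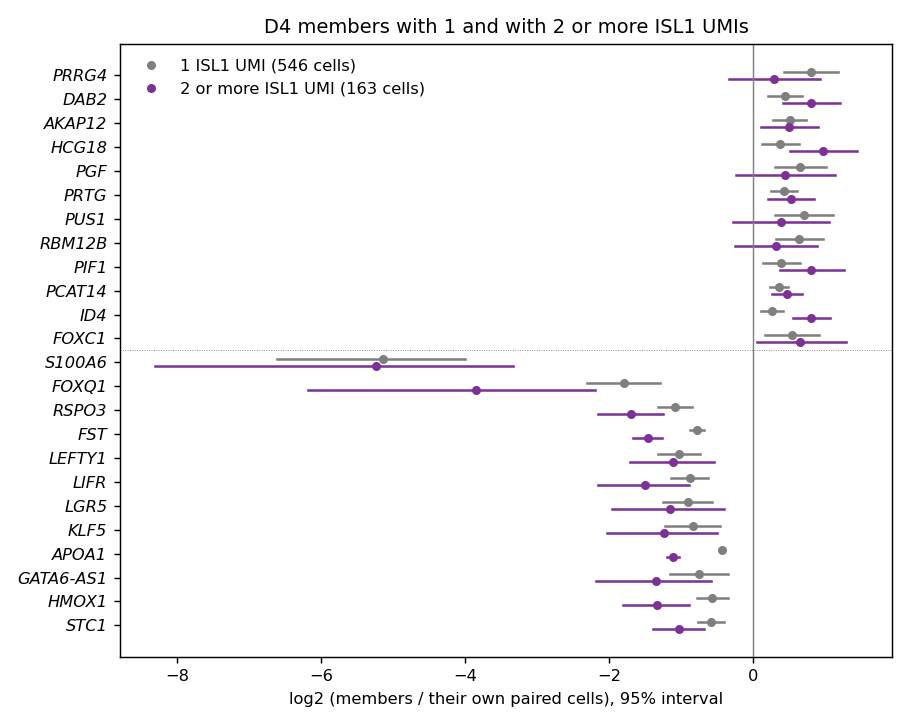
Log2 ratio over their own paired cells (horizontal axis, 95% interval) of D4 members with 1 ISL1 UMI (grey, 546 cells) and with 2 or more (purple, 163 cells) for the 24 named genes. All 12 lower genes lie further left with 2 or more UMIs, but the 2 intervals overlap for 9 of these 12 genes and for 11 of the 12 higher genes.

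Hypoblast markers with an interval apart from 0 lay more often below paired cells than above them. Of 17 compared hypoblast markers at D4, RSPO3 was past 1.5-fold lower (0.378% of all genes) and none was past 1.5-fold higher (0.0473%). Intervals lay below 0 for 8 (7.61% of all genes) and above it for 3 (8.57%), and the median log2 ratio was -0.15 against 0.01 for all genes. The endoderm transcription factors SOX17 and FOXA2 were at 0.09 (-0.05 to 0.24) and 0.14 (0.02 to 0.26) at D4 and at 0.20 and -0.11 at D6. GATA4 was at -0.12 and 0.26, with both intervals across 0. GATA6, which specifies primitive endoderm, stood at 80.3 CPM in D4 members and 116 CPM in paired cells (-0.53, -0.67 to -0.39) and at 182 and 248 CPM at D6 (-0.45, -0.75 to -0.15). Of these 4 factors GATA6 was thus the one that lay below paired cells on both days.

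Among apolipoproteins and other secreted liver-type proteins, none of 6 compared genes was past 1.5-fold at D4, 5 had intervals below 0 (7.61% of all genes), and the median was -0.28. At D6, of 10 compared, TTR was past 1.5-fold higher (10.8% of all genes) and APOA1, APOA2 and AFP past 1.5-fold lower (6.74%). The TTR and AFP results rested on few UMIs or cells. Of the 92 TTR UMIs in members, 58 came from 1 cell. AFP had 1 UMI in members and stood at 2.68 CPM over all ISL1-negative gated cells, under the minimum level. Without pairing, 9 genes were compared, of which 1 was higher and 2 were lower. APOA2 was at -0.37 (-0.44 to -0.30) at D4 and -0.96 (-1.12 to -0.80) at D6, APOE at -0.18 and -0.44, and APOC1 at -0.19 and -0.42. APOB, which carries low-density lipoprotein, was at -0.06 (-0.19 to 0.07) and 0.52 (-0.08 to 1.14). At D6, 18 hypoblast markers were compared, of which DAB2 was past 1.5-fold higher (10.8% of all genes) and APOA1, APOA2, SERPINE2 and RSPO3 were past 1.5-fold lower (6.74%). Their median was -0.40 at D6 against 0.05 for all genes. It was -0.29 in the endoderm-gene setting, -0.19 without pairing, -0.18 with the limited genes at 0 and -0.10 with pairs within cell cycle phase. Markers past 1.5-fold lower numbered 3 of 18 in the endoderm-gene setting and with pairs within phase. Without pairing and with the limited genes at 0 they numbered 4.

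The BMP targets had small ratios, all above 0 at D4. Of 9 compared, 6 had intervals above 0, none was past 1.5-fold, and the median was 0.15, where 8.57% of all genes had such an interval and 53.8% were above 0. ID1 stood at 1819 CPM in members and 1537 CPM in paired cells at D4 (0.24, 0.21 to 0.28) and at 1916 and 1454 CPM at D6 (0.40, 0.29 to 0.50). ID3 was at 0.22 (0.18 to 0.27) at D4 and 0.30 (0.15 to 0.44) at D6, and GATA3, a factor also of trophoblast and amnion, at 0.24 (0.15 to 0.32) and 0.32 (0.06 to 0.58). At D6, 3 of 10 were past 1.5-fold higher (10.8% of all genes), which were ID2, ID4 and HAND1. The HAND1 UMIs lay almost wholly in members with at most 1 of the 6 endoderm genes. MSX2 was at 0.12 (-0.07 to 0.30) and -0.55 (-1.04 to -0.07). In the endoderm-gene setting 2 of 9 were past 1.5-fold higher and the D6 median was 0.29 in place of 0.36.

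Among BMP ligands, BMP2, made by visceral endoderm, stood at 230 CPM in D4 members and 208 CPM in paired cells (0.14, 0.05 to 0.24) and at 222 and 205 CPM at D6 (0.12, -0.18 to 0.42). BMP7 was at 0.19 (0.03 to 0.35) and 0.51 (-0.16 to 1.20). None of 3 compared ligands and none of 8 compared receptors and SMADs was past 1.5-fold at D4. Of 4 compared BMP antagonists at D4, FST was past 1.5-fold lower (0.378% of all genes) and none was past 1.5-fold higher (0.0473%). Of 4 compared at D6, FST was past that fold lower (6.74% of all genes) and TWSG1 higher (10.8%). No antagonist was past it higher at D6 without pairing, with pairs within cell cycle phase or with the limited genes at 0. At D6 the ligand BMP4, of 5 compared, and the transducer SMAD9, of 8 receptors and SMADs, were past 1.5-fold higher (10.8% of all genes) and the receptor ACVR2A past 1.5-fold lower (6.74%). Of the 36 BMP4 UMIs, 28 lay in the 3 members with at most 1 of the 6 endoderm genes, and in the endoderm-gene setting none of 4 ligands was past 1.5-fold. At D4 the antagonist FST was therefore the compared BMP component furthest from 0.

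Of 8 compared genes of the NODAL pathway at D4, LEFTY1 was past 1.5-fold lower (0.378% of all genes). The intervals of 5 lay below 0, as did those of 7.61% of all genes, none lay above 0, and the median was -0.27. The ligand NODAL was at -0.47 (-0.80 to -0.15), while the co-receptor TDGF1 was at -0.07 (-0.16 to 0.03). At D6, NODAL, GDF3 and LEFTY1 were past 1.5-fold lower of 8 compared (6.74% of all genes). In the endoderm-gene setting 2 of 8 were, and with the limited genes at 0, 2 of 9. GDF3, a ligand of the NODAL type, stood at 34.8 CPM in D6 members and 246 CPM in paired cells (-2.82, -3.41 to -2.27), with UMIs in 23.2% and 56.1% of cells, and lay under the minimum level at D4.

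The list of anterior visceral endoderm (AVE) markers was mixed. Of 7 compared at D4, LEFTY1 was past 1.5-fold lower (0.378% of all genes), 4 had intervals below 0 (7.61%) and 3 above it (8.57%). FZD5, a WNT receptor, was at -0.48 (-0.58 to -0.39) at D4 and -1.25 (-1.46 to -1.04) at D6, and OTX2 at -0.33 and -0.59. HHEX, a homeobox factor of anterior endoderm, was at 0.23 (0.06 to 0.39) and 0.54 (0.09 to 1.00). LHX1, a LIM-homeodomain factor of the same family as ISL1, stood at 77.2 and 57.9 CPM at D4 (0.41, 0.24 to 0.59) but at 101 and 194 CPM at D6 (-0.94, -1.33 to -0.57). At D6, 6 of 8 AVE markers were past 1.5-fold lower (6.74% of all genes) and SHISA2 was past 1.5-fold higher (10.8%). In the endoderm-gene setting 5 were lower and 2 higher. With CER1 and the other limited genes required to be at 0, 2 of 7 were lower, as were 861 of all 7037 genes compared.

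**Figure D5:**
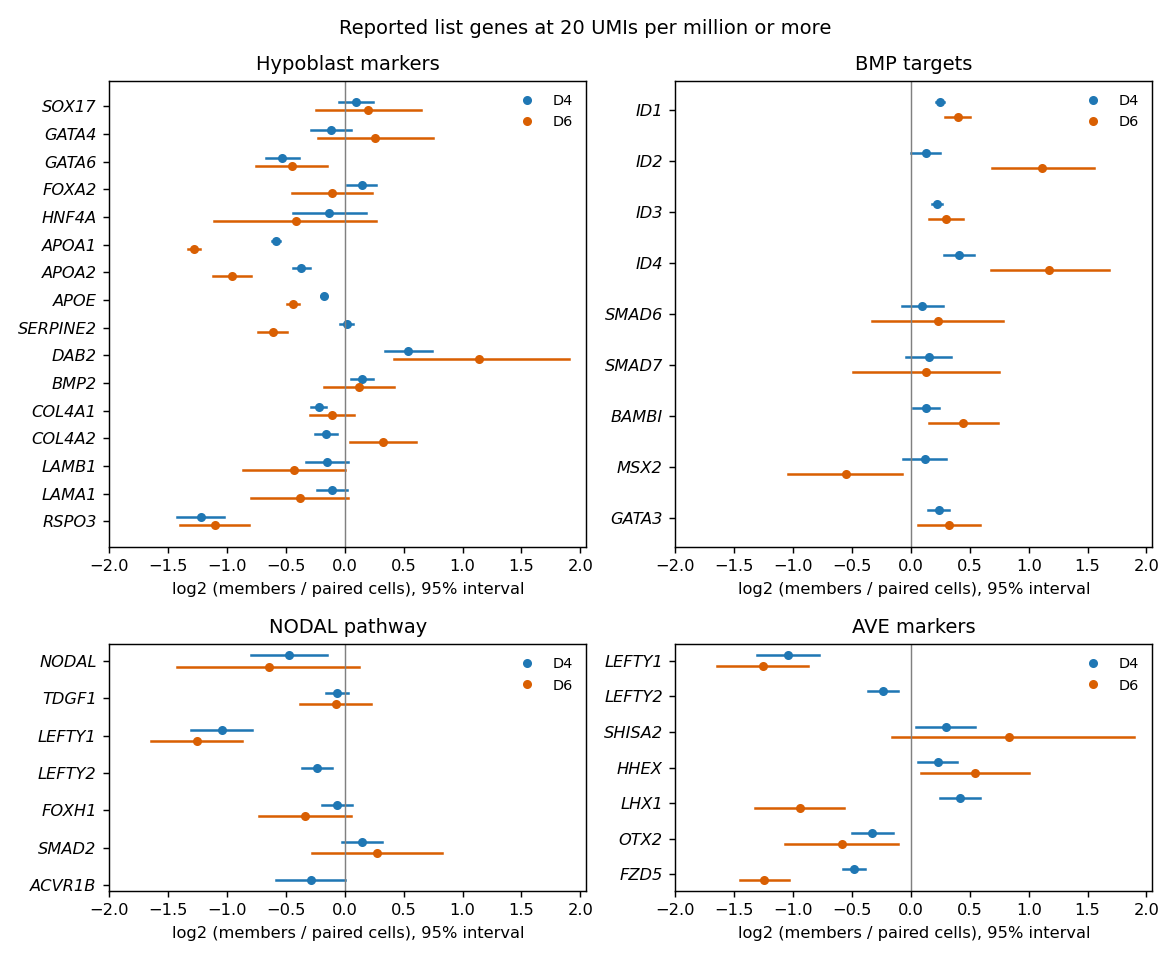
Log2 ratio of members over paired cells (horizontal axis, 95% interval) for reported genes at 20 CPM or more at D4, in 4 panels for hypoblast, BMP target, NODAL and AVE genes, at D4 (blue) and D6 (orange). The 9 BMP targets lie above 0 at D4, and among hypoblast markers RSPO3, APOA1, APOA2, APOE and GATA6 have intervals below 0 on both days.

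Other signalling genes differed in single members. Of 5 WNT targets compared at D4, LGR5 was past 1.5-fold lower (0.378% of all genes) and the list median was -0.06, and of 3 WNT antagonists none was past 1.5-fold. Of 9 FGF targets, SPRY1 was past 1.5-fold lower (0.378% of all genes) at -0.59 (-0.94 to -0.24), DUSP6 was at 0.16 (0.05 to 0.27), and the median was 0.16. None was past that fold lower without pairing, with pairs within cell cycle phase, in the endoderm-gene setting or with the limited genes at 0. At D6 SPRY1 and ETV4 were past 1.5-fold lower of 10 (6.74% of all genes), and the median was -0.20. Without pairing 1 of 10 was lower, and with the limited genes at 0, 1 of 9 was lower and 1 higher. Of 4 WNT antagonists at D6, DKK1 and FRZB were past 1.5-fold lower (6.74% of all genes) and DKK3 higher (10.8%), but none was higher without pairing, with pairs within cell cycle phase or with the limited genes at 0. Of 4 FGF ligands and receptors at D4, FGF17 alone had an interval apart from 0 (7.61% of all genes lay below it), at -0.48 (-0.57 to -0.38). At D6 FGF17 was at -1.03 (-1.28 to -0.78). IHH, the only hedgehog gene compared at D4, was at -0.34 (-0.62 to -0.06). At D6, of 2 hedgehog genes compared, IHH was past 1.5-fold lower (6.74% of all genes) and PTCH1 higher (10.8%). In the endoderm-gene setting IHH alone was compared and was lower, and with the limited genes at 0 none of 2 was lower.

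Other programmes in which ISL1 is known were read from lists. Of 14 heart field genes, GATA4 and GATA6 reached 20 CPM at D4, and TBX5 and HAND2 had no UMI in D4 members. At D6, 4 were compared, FGF8 was past 1.5-fold higher (10.8% of all genes) at 1.07, with an interval across 0 (-0.08 to 2.32), TBX5 had no UMI and HAND2 had 2 UMIs in 1 member. Of 12 foregut and pancreas genes, 3 reached 20 CPM at D4, among them FOXA1 and FOXA2, which are also endoderm factors, and PDX1 and NKX6-1 had no UMI on either day. At D6, 4 of the 12 were compared and PAX6 was past 1.5-fold lower (6.74% of all genes). Of 21 LIM-homeodomain and cofactor genes, 5 were compared at D4 and none was past 1.5-fold, with SSBP3 at -0.04 and the LIM-only protein LMO4 at 0.24 (0.02 to 0.45). At D6, of 5 compared, RLIM was past 1.5-fold higher (10.8% of all genes) and LHX1 past 1.5-fold lower (6.74%), and without pairing none was higher. With the limited genes at 0, 2 of 6 were higher and none was lower.

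Markers of other tissues were summed over their lists. The 12 amnion markers summed to 288 CPM in D4 members, 263 CPM in paired cells and 295 CPM in TFAP2A-positive cells, and to 421, 320 and 489 CPM at D6. BAMBI, a BMP target, was the most abundant at 170 CPM in D4 members, none of 3 compared was past 1.5-fold at D4, and BMP4 and IGFBP3 of 4 were past 1.5-fold higher at D6, as were 10.8% of all genes (1 of 3 in the endoderm-gene setting, with a median of 0.25 in place of 0.72), while TFAP2B, VTCN1, DLX5 and WNT6 had no UMI in members on either day. The 16 mesoderm markers summed to 167 and 169 CPM at D4 and to 261 and 271 CPM at D6, led by EOMES, which endoderm also expresses, with MSGN1 and COL3A1 at 0 on both days. None of 3 compared was past 1.5-fold at D4, and at D6, of 3 compared, HAND1 was past that fold higher (10.8% of all genes) and MIXL1 lower (6.74%). In the endoderm-gene setting none of 2 was higher and 1 was lower, and 26 of the 28 HAND1 UMIs lay in the 3 members with at most 1 of the 6 endoderm genes. Of 12 trophoblast markers GATA3 alone was compared, and CGA, CGB5, ELF5 and GCM1 had no UMI. The 10 endothelial and blood markers summed to 6.32 CPM in D4 members and 6.33 CPM in paired cells. The 12 epiblast markers summed to 1357 CPM in D4 members, 1459 CPM in paired cells and 3893 CPM in epiblast-like cells, with none of the compared genes past 1.5-fold on either day, and this list leaves out POU5F1 and SOX2, of which POU5F1 was the higher in members. The 8 definitive endoderm markers summed to 819 CPM in D4 members, 932 CPM in paired cells and 47.5 CPM in epiblast-like cells, 6 were compared at D4 and none was past 1.5-fold, and at D6, of 6 compared, KIT was past 1.5-fold higher (10.8% of all genes) and GSC lower (6.74%), but none was higher without pairing, with pairs within phase or with the limited genes at 0.

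Structural genes differed little at D4. None of 11 basement membrane genes was past 1.5-fold, and COL4A1 was at -0.22 (-0.28 to -0.16) while COL4A6 was at 0.24 (0.14 to 0.34) at D4 and 0.67 (0.31 to 1.04) at D6. None of 10 actomyosin genes and none of 8 epithelial and mesenchymal genes was past 1.5-fold, though TAGLN stood at 212 and 306 CPM (-0.53, -0.62 to -0.44) and VIM at 500 and 695 CPM (-0.48, -0.53 to -0.42). The same 2 genes were at -0.66 and -0.45 at D6. TAGLN was thus past 1.5-fold lower at D6, as were 6.74% of all genes. No actomyosin gene was past that fold lower at D6 without pairing, with pairs within cell cycle phase or with the limited genes at 0. The endocytosis list of 3 compared genes had a median of 0.24, with DAB2 the highest. None of 8 dissociation-response genes was past 1.5-fold at D4, and their median was 0.06.

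Cell cycle genes moved with the comparison. At D4 21 of 50 G2M genes had intervals above 0 and none below (8.57% and 7.61% of all genes), with a median of 0.12, which was 0.06 when pairs were made within cell cycle phase. Of 32 S-phase genes at D6, 10 were past 1.5-fold higher (10.8% of all genes) with a median of 0.43, and with pairs within phase 1 of 34 was higher and the median was -0.07. Under pairing within phase, the log2 ratios of FST, RSPO3, APOA1, FOXQ1 and LEFTY1 lay between -2.01 and -0.55 at D4 and between -1.16 and -0.67 at D6.

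The 24 named genes were also set beside the other FN1-positive groups, as a description, since they were chosen as the most extreme in D4 members and each group was chosen on its own marker. The 6 groups were members, all ISL1-negative gated cells, and CER1-, NPPB-, FGFBP3- and APOA4/LCN15-positive cells. Among them, D4 members had the lowest level of 8 of the 12 named lower genes and the highest level of 8 of the 12 higher genes. At D6 these numbers were 4 of the 11 lower genes with a UMI in members and 5 of the 12 higher genes. The lower genes peaked in NPPB-positive cells for 6 of 12 and in CER1-positive cells for 4, which were the ones with the least ISL1 among the 4 groups outside the gate. FST stood at 654 CPM in NPPB-positive, 349 CPM in CER1-positive, 348 CPM in APOA4/LCN15-positive and 209 CPM in FGFBP3-positive cells, against 198 CPM in members. LEFTY1 stood at 815 CPM in CER1-positive cells, a group chosen on CER1, and at 30.1 CPM in APOA4/LCN15-positive cells.

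The members of D4 and D6 were also set beside each other, which sets 1 library against another. Of 1799 genes at 100 CPM or more on either day, 19 were at least 2-fold higher in D6 members and 3 at least 2-fold lower. APOA1 stood at 1143 CPM at D4 and 4281 CPM at D6 in members (log2 ratio 1.91) and at 1671 and 9296 CPM in ISL1-negative gated cells (2.48). RSPO3 was at 2.28 in members and 2.41 in ISL1-negative cells, HMOX1 at 1.95 and 2.26, and the tight junction protein CLDN7 at 2.04 and 2.35. LEFTY2, a NODAL inhibitor, stood at 110 CPM at D4 and 5.62 CPM at D6 in members (-4.29) and at 129 and 11.6 CPM in ISL1-negative cells (-3.48). GAL, a neuropeptide, was at -1.15 and -1.47, and the glypican GPC3 at -0.999 and -1.23. CCNB1, HMMR and UBE2C, all of mitosis, were at -1.24, -0.98 and -0.87 in members and at -0.52, -0.43 and -0.42 in ISL1-negative cells.

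TTR and CRH were the highest ratios and rested on few cells. TTR, a thyroid hormone carrier, stood at 2.34 CPM in D4 members and 103 CPM in D6 members, where 9 of 82 members held its 92 UMIs and 58 came from a single cell. CRH had no UMI at D4, and its 113 UMIs at D6 all came from 1 member with at most 1 of the 6 endoderm genes. FOXC1 and ID4 stood at 18.1 and 104 CPM in ISL1-negative cells at D4 and at 3.03 and 48.8 CPM at D6, while in members FOXC1 stood at 24.6 and 11.2 CPM and ID4 at 134 and 127 CPM.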

How the data were processed

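Per the file headers, the authors made the deposited UMI counts with Cell Ranger 6.0.1, and the submitters' processing notes name hg38. The counts had not been normalized. The submitters also name Seurat 4.0.1 and R 4.0.3, which made none of the values used here. The 7 bisulfite libraries were not analysed here. From the counts of 36601 genes, gated cells and members were taken by the limits given. Each member, deepest first, was paired without replacement with the nearest ISL1-negative gated cell (largest gap 748 UMIs at D4 and 319 at D6). UMIs were summed per group. Levels have exact Poisson, shares exact Clopper-Pearson and log2 ratios exact conditional binomial intervals at 95%. Genes at 20 CPM or more in either group were compared, without mitochondrial genes and the 12 genes of the rule. Named genes were the 12 highest and 12 lowest at D4 by the interval end nearest 0, the 6 that rose and 6 that fell most from D4 to D6 at 100 CPM, and the listed genes. The members and the 29 gene lists were chosen with earlier results of these data known. Doublets (Scrublet) and cell cycle phases came from scanpy 1.11.5, the rest from Python 3.11.15 with numpy 2.4.6 and scipy 1.17.1. The pairing and the intervals were tested on simulated data. PCR duplicates were removed by UMI, and intervals cover counting error only. Alternatives changed the depth handling, limits, doublets and the minimum level. Some listed genes are counted with their lists but not reported here by name.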

Additional observations from a re-analysis of the deposited data

Results flagged for a closer look

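In 4 listed genes the intervals of members over paired cells lay on opposite sides of 0 on the 2 days. LHX1 stood above paired cells at D4 (log2 ratio 0.41) and below them at D6 (-0.94). With CER1, NPPB, FGFBP3 and the other limited genes at 0, no compared LIM-homeodomain gene was past 1.5-fold lower at D6. RFC2, a replication factor subunit, was at -0.30 and then at 0.96, COL4A2 at -0.16 and then at 0.33, and KRT18 at 0.03 and then at -0.21. RFC2 is on the S-phase list, of which 10 of 32 compared genes were past 1.5-fold higher at D6. With pairs within cell cycle phase, 1 of 34 was. Each day was 1 library, and the difference between the days was not tested.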

How the results depend on the processing

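No paired analysis was possible because each day was 1 library and no test was run. Requiring 2 of the 6 endoderm genes, or CER1, NPPB, FGFBP3 and the other limited genes at 0, was chosen after seeing the data, and members with at least 2 ISL1 UMIs were not run at D6, where they numbered 11. The 12 higher and 12 lower named genes kept their sign at D4 under every alternative run. They had been ranked in the same D4 members. At D6, 11 of the 12 named higher genes and 10 of the 11 lower kept the sign of their main D6 value. That value was above 0 for 10 of the 12 and below 0 for HCG18 and PUS1. When the paired cells were thinned, HCG18 turned to 1.12 and KLF5 to 0.24. The counts of genes past 1.5-fold depended on counting error and so on the number of UMIs. With a minimum of 10 CPM, 19 were higher and 52 lower at D4, and 1419 and 866 at D6. With 50 CPM these were 0 and 6 at D4, and 156 and 166 at D6, and with no minimum 1783 and 1935, and 2571 and 1845. Thinning both cells of each pair gave 77 and 89 at D4 and 1412 and 1113 at D6, and 1 of the 3 genes higher at D4 was then past 1.5-fold at D6. Members with at least 2 ISL1 UMIs had 164 higher and 171 lower genes at D4. Pairing within phase and FN1 of at least 5 each gave 5 higher genes at D4, and the limited genes at 0 gave 15 higher at D4 and 861 lower at D6. Without pairing, 389 were higher and 280 lower at D6, and within strata of depth 392 and 275. The ISL1 share was 8.65% at D4 and 2.37% at D6 after thinning, and 8.16% at D6 with the limited genes at 0. The D6 cells with GYPE, GYPB or RIPPLY1 above the limit were at 0 CPM of ISL1 with FN1 of at least 5. All other alternatives for counts, shares and states, which were 35, 11 and 27 values, stayed within 1.5 times or within counting error. This holds for the counts, and the genes past 1.5-fold were not always the same ones. The 82 members at D6 limited that day.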

Other observations

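A small group of ISL1-negative gated cells at D4 was not endoderm-like by its genes. In 46 of the 2064 cells, UMIs of at most 1 of the 6 endoderm genes were found, and their median depth was 5434.5 UMIs. These cells stood at 4186 CPM for S100A6, 1703 CPM for COL1A1, 1001 CPM for COL1A2 and 422 CPM for PRRX1, genes of fibroblasts and mesenchyme, against 13.3, 18.4, 3.08 and 1.76 CPM in the other ISL1-negative gated cells. The 10 D4 members with as few endoderm genes had no UMI of S100A6, COL1A2 or PRRX1 and 1 of COL1A1. FN1 stood at 1008 CPM in the 46 cells and 952 CPM in the rest, so the FN1 limit did not separate them.

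The long non-coding neighbour of ISL1 (ISL1-DT, listed as AC010478.1) was near 0. It had 4 UMIs in D4 members and 4 in paired cells, 1 and 0 at D6, and none in epiblast-like cells, so no difference was detectable at this depth.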
